A study of Mus musculus with 4 samples.

Results

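The transcripts that encode the proteasome, together with those of its activators and of the factors that assemble it, were examined in mouse livers lacking NIPP1. The members were all non-control probes whose gene symbol starts with Psm, then a letter from a to g and a digit. This gave 49 genes of the 30175 named genes on the array, measured by 62 of its 39429 probes. Of these, 48 genes and 59 probes were bright enough to be tested, and 57 probes were well above background in all 8 mice. The livers came from 4 mice labelled as conditional liver NIPP1 knockouts and from 4 control mice. All 8 were untreated males of a mixed strain, 2 months old. NIPP1, encoded by Ppp1r8, is a nuclear protein that binds and regulates protein phosphatase 1. The sources used here do not name the Cre line, the cells in which it acts, the deleted exons or the alleles of the controls. Total RNA of 1 knockout and 1 control mouse was hybridised to each of 4 two-colour arrays, with the knockout RNA in Cy3 on arrays 1 and 2 and in Cy5 on arrays 3 and 4.

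The proteasome degrades proteins that carry a ubiquitin tag. Its core particle is a barrel of outer alpha rings and inner beta rings, and 3 kinds of beta subunit cut peptide bonds. The regulatory particle caps the barrel, binds the ubiquitin tag and unfolds the substrate with a ring of ATPases. Interferon induces immunoproteasome subunits that replace the constitutive catalytic subunits and favour peptides for antigen presentation. Other activators open the barrel without ATP, and dedicated chaperones build each particle. In many cells the transcription factors NRF1 and NRF2, encoded by Nfe2l1 and Nfe2l2, can raise proteasome gene transcription, NRF1 for most subunits together when the proteasome is inhibited.

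The 49 genes fell into 5 classes of 3 to 17 genes and a remainder of 3 genes. The constitutive core had 14 genes, the regulatory particle 17, the assembly factors 7, the activators with the inhibitor PI31 5, and the immunoproteasome 3. The remainder held the tissue-specific core subunits Psma8 and Psmb11, and Psmc3ip. Psmc3ip shares the name stem but is no proteasome subunit: it encodes a partner of the recombinase machinery in meiosis. Psmb11, the core subunit of thymic epithelium, was not well above background in any mouse, and neither was the second probe of Psmb9 or the third probe of Psme2.

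The promoters of 4 members are shown for the genes on which the results below turn. Psme4 and Psmg4 had the lowest and the highest mean ratio of all members. Psmb8 and Psmb9, interferon-induced subunits, were among the members that varied most between the arrays. Each window runs from 250 bases before to 50 bases after the start given by RefSeq on GRCm38.p6, written 5′ to 3′ on the strand of the gene. Capitals mark a match to a searched motif, either way round.
Psme4, chr11:30771525-30771824, plus strand: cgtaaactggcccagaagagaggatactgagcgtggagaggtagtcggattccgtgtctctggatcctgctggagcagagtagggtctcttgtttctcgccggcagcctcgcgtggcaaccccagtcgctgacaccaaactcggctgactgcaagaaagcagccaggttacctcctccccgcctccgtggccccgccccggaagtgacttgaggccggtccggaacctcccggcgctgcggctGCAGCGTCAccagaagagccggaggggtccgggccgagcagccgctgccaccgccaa
Psmg4, chr13:34162714-34163013, plus strand: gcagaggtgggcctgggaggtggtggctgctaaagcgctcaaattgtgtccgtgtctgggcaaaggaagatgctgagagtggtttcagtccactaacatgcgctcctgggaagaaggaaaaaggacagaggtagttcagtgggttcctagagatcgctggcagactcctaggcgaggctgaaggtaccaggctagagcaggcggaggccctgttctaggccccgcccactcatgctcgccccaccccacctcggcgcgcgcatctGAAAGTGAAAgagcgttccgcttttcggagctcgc
Psmb8, chr17:34197945-34198244, plus strand: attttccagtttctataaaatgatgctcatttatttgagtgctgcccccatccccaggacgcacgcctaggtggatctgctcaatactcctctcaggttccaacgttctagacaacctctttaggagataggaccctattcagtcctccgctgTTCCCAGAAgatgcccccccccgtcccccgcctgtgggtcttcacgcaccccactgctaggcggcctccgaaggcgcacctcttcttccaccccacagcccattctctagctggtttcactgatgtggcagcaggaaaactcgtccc
Psmb9, chr17:34187281-34187580, minus strand: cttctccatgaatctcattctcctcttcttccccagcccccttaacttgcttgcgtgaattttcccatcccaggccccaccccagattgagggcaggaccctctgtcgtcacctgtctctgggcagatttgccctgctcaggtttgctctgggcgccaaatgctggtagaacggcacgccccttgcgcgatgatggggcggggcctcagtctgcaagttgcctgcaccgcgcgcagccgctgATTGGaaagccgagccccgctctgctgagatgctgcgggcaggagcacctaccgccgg
The searched motifs were the antioxidant response element core TGACNNNGC bound by NRF proteins, the interferon-stimulated element core (GAAA, 2 bases of any kind, GAAA), the gamma-activated site TTCNNNGAA and the CCAAT box. Both strands were searched in all 32851 promoters of the table. Among the 49 members, 41 had an entry. The antioxidant core was in 6 of the 41 (Psmb5, Psmb6, Psmc6, Psmd12, Psmd9 and Psme4), beside 12.4% of all promoters. The interferon-stimulated core was in 5 (Psmb3, Psmd4, Psmd9, Psme1 and Psmg4), beside 3.44%. The gamma-activated site was in 3 (Psmb8, Psmd2 and Psmg1), beside 8.3%, and the CCAAT box in 15, beside 37.4%. The match in Psme4 lies across the start, and that in Psmg4 follows it. Psmb9 and its neighbour Tap1 run in opposite directions, and their windows share 275 bases. A match is a description of these letters and not evidence of binding.

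Each array had 43020 non-control spots, of which 52.7% to 56.3% were well above background in a channel, and none was saturated. All 4 arrays lay on 1 slide and were scanned together, so the dye orientation was the technical split that remained. The knocked-out gene was lower in knockout mice on every array, with log2 ratios for Ppp1r8 of -0.60, -0.73, -0.74 and -0.63 on arrays 1 to 4. Its mean was -0.68 ± 0.05 (SE, n = 4 arrays), with an adjusted p of 0.0518 in limma. With the scanner software's processed signals the mean was -1.33, so its size depends on the processing. The probe's position relative to the deleted part is unknown, so how far it checks the labels is unknown too. Hepatocyte markers had median log2 ratios of -0.35, -0.23, 0.09 and 0.58 on the 4 arrays over 7 genes. Markers of pancreatic acinar cells, 10 genes, had medians of 4.16, -2.62, -0.17 and -1.04, far from 0 on arrays 1 and 2. In whole liver RNA, fewer cells of a type and less RNA per cell cannot be told apart. All ratios below are log2 knockout over control on arrays 1 to 4 in that order, and means are given with the standard error of the fit over 4 arrays.

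Most proteasome transcripts differed little between knockout and control livers. No member probe had an adjusted p under 0.05, against 39 of the 20833 tested probes of the array (0.187%). At an adjusted p under 0.1, limma called 2 of 59 member probes (3.39%), against 1402 of all probes (6.73%). These were Psme4, lower in knockout livers, and Psmg4, higher. At an unadjusted p under 0.05 there were 12 member probes (20.3%), against 23.2% of all probes. They split into 6 higher and 6 lower in knockout mice, against 12.9% and 10.3% of all probes. The same sign on all 4 arrays was seen for 16 member probes (27.1%), 10 higher and 6 lower, against 24.5% of all probes, 13.4% higher and 11.1% lower. The knockout and control mice did not overlap in log2 intensity, compared after quantile normalisation of the arrays' average intensities, for 8 member probes (13.6%), against 12.3% of all probes. Each of these shares was near or below that of the whole array. By the sign of the mean alone, 39 of the 59 member probes (66.1%) were above 0, against 50% of all probes. A separate-channel fit, which takes the 8 intensities one by one, called 10 member probes under 0.05 (16.9%), against 17.6% of all probes. Under 0.1 it called 16 (27.1%), against 26.5% of all probes. With processed signals 0 of 59 were under 0.1 in limma, against 4.9% of all probes. At an unadjusted p under 0.05 the processed signals gave 7 member probes (11.9%), against 22.4% of all probes. Without the dye term 8 had an unadjusted p under 0.05 (13.6%), against 15.8% of all probes. The split at that threshold depended on the scaling. With median centring it was 14 higher (23.7%) and 2 lower (3.39%), against 16.8% and 6.84% of all probes. With separate channels it was 14 higher and 8 lower (13.6%), against 17.5% and 15.6% of all probes.

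The fitted ratios of the members lay between -0.26 and 0.25, a range that held 85.1% of all tested probes. None exceeded 0.5 in either direction, which 3.75% of all tested probes did. The median size of a ratio was 0.097 for the members and 0.093 for all probes. The member probes were brighter than all tested probes, with a median average log2 intensity of 12.7 against 8.90. Their median SD over arrays was 0.14 against 0.17, and the shares given here were not matched for brightness. For all 59 member probes the 95% interval excluded a 1.5-fold change in either direction (a log2 ratio of 0.58), as it did for 89.6% of all tested probes. That interval leaves out any difference between the dye orientations. Fitted without the dye term, 58 of the 59 intervals excluded 1.5-fold, the exception being Psme3. With the processed signals of the scanner software 55 did so, all but Psma8, Psmb8, Psmc3ip and Psme3. The interval half-widths ran from 0.12 to 0.55 with a median of 0.14, so changes smaller than about that size were not resolved with 4 arrays.

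**Figure D1:**
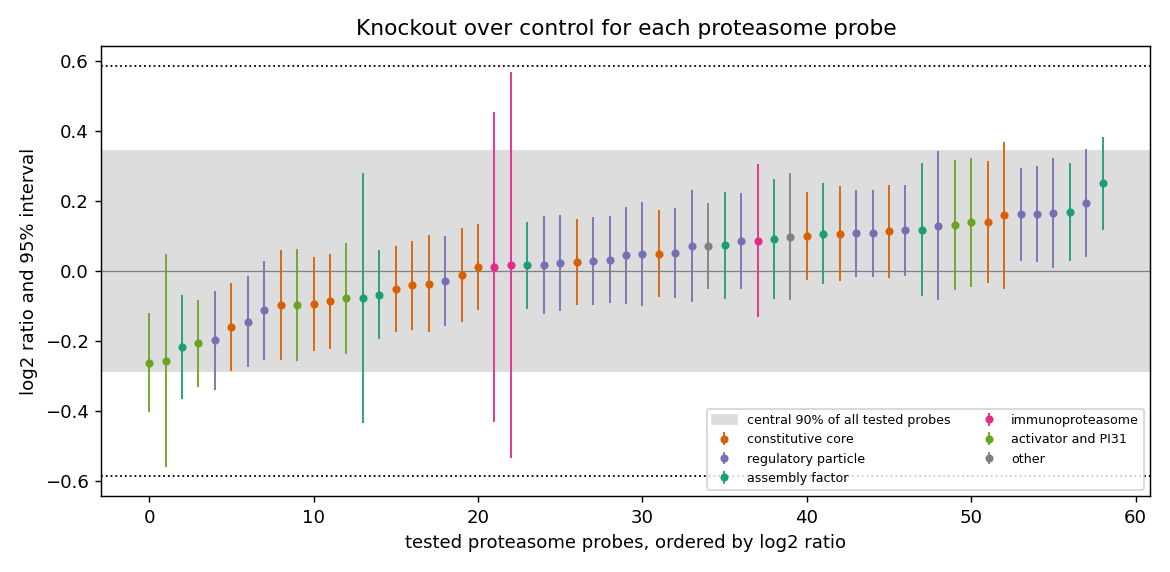
Fitted log2 ratio of knockout over control (points) with its 95% interval (bars) for each of the 59 tested proteasome probes, ordered by ratio and coloured by class. The grey band spans the 5th to 95th percentile of all tested probes, -0.28 to 0.34, and the dotted lines mark 1.5-fold. All points lie between -0.26 and 0.25, and the widest bars belong to immunoproteasome genes.

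The classes differed little in their medians, and these varied between arrays. The medians on arrays 1 to 4 were 0.027, 0.039, -0.074 and -0.022 for the constitutive core. They were 0.14, 0.087, 0.021 and -0.072 for the regulatory particle, and 0.18, 0.083, 0.082 and 0.092 for the assembly factors. The assembly factors were thus the class whose median lay above 0 on every array. The activators had 0.042, -0.14, -0.13 and 0.0022, and the immunoproteasome genes 0.40, -0.22, -0.40 and 0.17, the widest spread of any class. Over all 48 tested member genes the array medians were 0.12, 0.041, -0.028 and -0.037, beside -0.013, -0.013, 0.018 and 0.025 over all 16178 tested genes. Arrays 1 and 2 were those on which the acinar markers stood farthest from 0. Fits that left out an array kept the dye term, so both dye orientations still had equal weight. The array alone in its orientation thus weighed more than each other array. Leaving out arrays 1 to 4 in turn, the median of these fitted ratios was -0.024, -0.011, 0.0037 and -0.041 for the constitutive core. It was 0.048, 0.044, 0.046 and 0.060 for the regulatory particle, and 0.071, 0.14, 0.076 and 0.14 for the assembly factors. For the activators it was -0.14, -0.052, -0.10 and -0.062, and for the immunoproteasome -0.15, 0.18, 0.16 and -0.10, so the immunoproteasome median changed sign with the array left out.

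Many ratios changed sign with the dye orientation, among the members as on the whole array, but the members leaned to lower ratios in Cy5. Between the arrays with knockout RNA in Cy3 and those with it in Cy5, the mean ratio changed sign for 22 of the 48 members (45.8%), beside 50.7% of 16165 genes of the array measured in both. The ratio was lower in the Cy5 orientation for 34 of the 48 members, beside 7324 of those 16165 genes. The median ratio of the members was 0.098 with knockout RNA in Cy3 and -0.035 with it in Cy5. Over the 16165 genes these medians were -0.012 and 0.021. Each orientation also held different mice, so dye and mouse cannot be told apart in that difference.

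**Figure D2:**
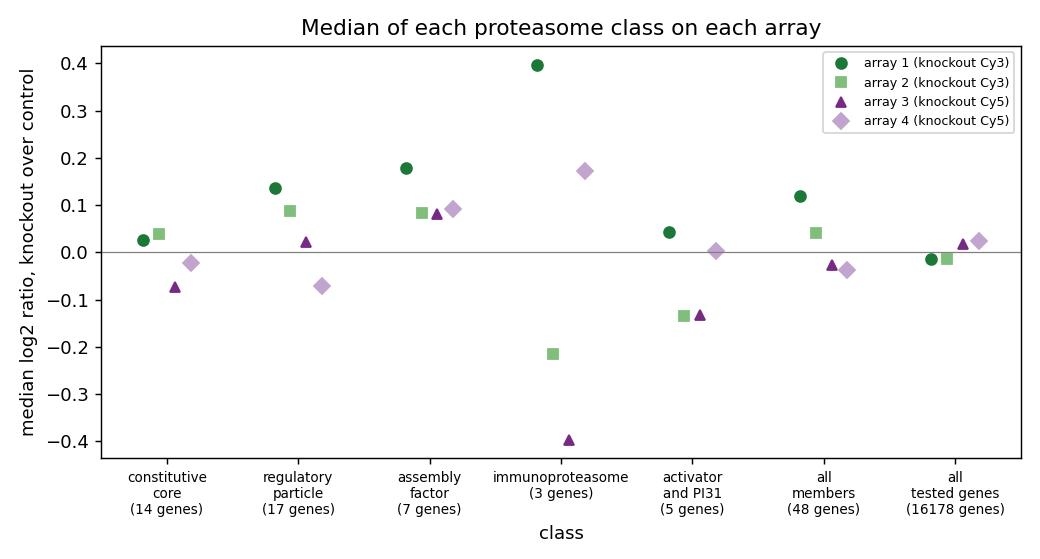
Median log2 ratio of knockout over control on each array for the 5 proteasome classes, for all member genes and for all tested genes, with 1 tested probe for each gene. The 4 assembly factor medians lie between 0.082 and 0.18, while those of the immunoproteasome run from -0.40 to 0.40.

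The constitutive core showed no shared direction. Of its 14 genes, 6 had a mean ratio above 0 and 8 below, with a median of -0.024 that became 0.033 when arrays were centred on their median in place of loess. Psma5, a subunit of the alpha ring, was the 1 core gene with an unadjusted p under 0.05. Its ratios were -0.078, -0.15, -0.20 and -0.21, with a mean of -0.16 ± 0.05 and an adjusted p of 0.154. Its log2 intensity was 12.72, 12.85, 12.72 and 12.80 in knockout mice, against 12.79, 12.99, 12.92 and 13.01 in control mice. The knockout mouse was below its control on each array, but the 2 groups overlapped. Psmb2, a subunit of the beta ring, had intensities of 10.13, 10.12, 10.10 and 10.09 in knockout mice, against 10.13, 10.26, 10.18 and 10.22 in controls. These groups did not overlap, yet the mean ratio was small at -0.086 ± 0.050, with an adjusted p of 0.378.

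The 3 constitutive catalytic subunits did not move together. Psmb5, which carries the chymotrypsin-like activity, had ratios of 0.11, 0.085, 0.41 and 0.032 at its brighter probe, with a mean of 0.16 ± 0.08 and an adjusted p of 0.306. Its fitted ratio, with both dye orientations weighted equally, was 0.066 without array 3 and 0.25 without array 4. The other probe gave 0.43, 0.46, -0.029 and -0.30, so both probes averaged above 0 but disagreed array by array. Psmb6, the caspase-like subunit, had -0.096, -0.048, 0.093 and 0.093. Its mean of 0.011 ± 0.046 was the core value nearest to 0. Psmb7, the trypsin-like subunit, had 0.15, 0.18, -0.25 and -0.29, a change of sign with the dye. Among the other core genes, Psma4 of the alpha ring had 0.19, 0.13, 0.012 and 0.12, above 0 on every array, with a mean of 0.11 ± 0.05 and an adjusted p of 0.264. Psmb1 of the beta ring had 0.12, 0.073, -0.18 and -0.061, with a mean of -0.012 ± 0.050. Psma1 and Psma6 were above 0 on all arrays, with means of 0.099 and 0.050. The core genes not yet given by value (Psma2, Psma3, Psma7, Psmb3 and Psmb4) had mean ratios between -0.098 and 0.026.

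The regulatory particle had 13 genes above 0 and 4 below, with a median of 0.050. Of all 16178 tested genes, 8032 were above 0 and 8146 below. Of its 21 probes, 6 (28.6%) had an unadjusted p under 0.05, against 23.2% of all probes. Those 6 were 4 higher and 2 lower in knockout mice. None of the 21 had an adjusted p under 0.1, against 6.73% of all probes. Psmd4, a receptor for ubiquitin chains, had the highest mean of the class. Its ratios were 0.40, 0.33, 0.12 and -0.077, with a mean of 0.19 ± 0.06 and an adjusted p of 0.158. The intensities were 14.59, 14.56, 14.35 and 14.40 in knockout mice, against 14.19, 14.23, 14.23 and 14.48 in controls, and overlapped through array 4. Psmc1, an ATPase of the ring, had 2 probes that both averaged above 0. The brighter gave -0.056, 0.16, 0.27 and 0.28, with a mean of 0.17 ± 0.06. The second gave 0.11, 0.22, 0.14 and 0.18, with a mean of 0.16 ± 0.05. The adjusted p was 0.201 at the brighter probe and 0.163 at the second. At the second probe the knockout mice had intensities of 12.98, 13.04, 12.98 and 13.00, against 12.88, 12.82, 12.84 and 12.82 in controls, with no overlap. Psmd1, a large scaffold subunit of the base, had 0.019, 0.15, 0.27 and 0.22, with a mean of 0.16 ± 0.05 and an adjusted p of 0.168. It also separated the groups, with 13.45, 13.59, 13.50 and 13.57 in knockout mice, against 13.43, 13.44, 13.23 and 13.35 in controls.

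In the other direction, the ATPase Psmc5 had ratios of -0.23, -0.33, -0.054 and -0.18, with a mean of -0.20 ± 0.05 and an adjusted p of 0.136. It was lower in the knockout mouse of each array, but the groups overlapped, with intensities of 11.49, 11.50, 11.56 and 11.78 in knockout mice, against 11.71, 11.83, 11.62 and 11.95 in controls. Psmd13, a subunit of the lid, had 0.12, 0.021, -0.36 and -0.36, so its mean of -0.14 ± 0.05 came from the arrays with knockout RNA in Cy5. Psmc2, an ATPase of the same ring, and Psmd11, a lid subunit, were nearest to 0. Psmc2 had -0.064, -0.047, 0.18 and 0.030, with a mean of 0.023 ± 0.051. Psmd11 had 0.11, 0.087, -0.20 and -0.11, with a mean of -0.029 ± 0.048 that became 0.031 under median centring. ATPases of the same ring thus had means of opposite sign. Of the 17 genes, 9 changed sign between dye orientations. The scaffold subunit Psmd2 had 0.27, 0.31, -0.20 and -0.24, and the lid subunit Psmd3 had 0.22, 0.31, -0.24 and -0.12. Psmd14, the lid enzyme that removes ubiquitin from substrates, had 0.36, 0.031, 0.17 and -0.036, with a mean of 0.13 ± 0.08. The other 7 genes (Psmc3, Psmc4, Psmc6, Psmd6, Psmd7, Psmd8 and Psmd12) averaged between -0.11 and 0.12 at their brightest probes.

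**Figure D3:**
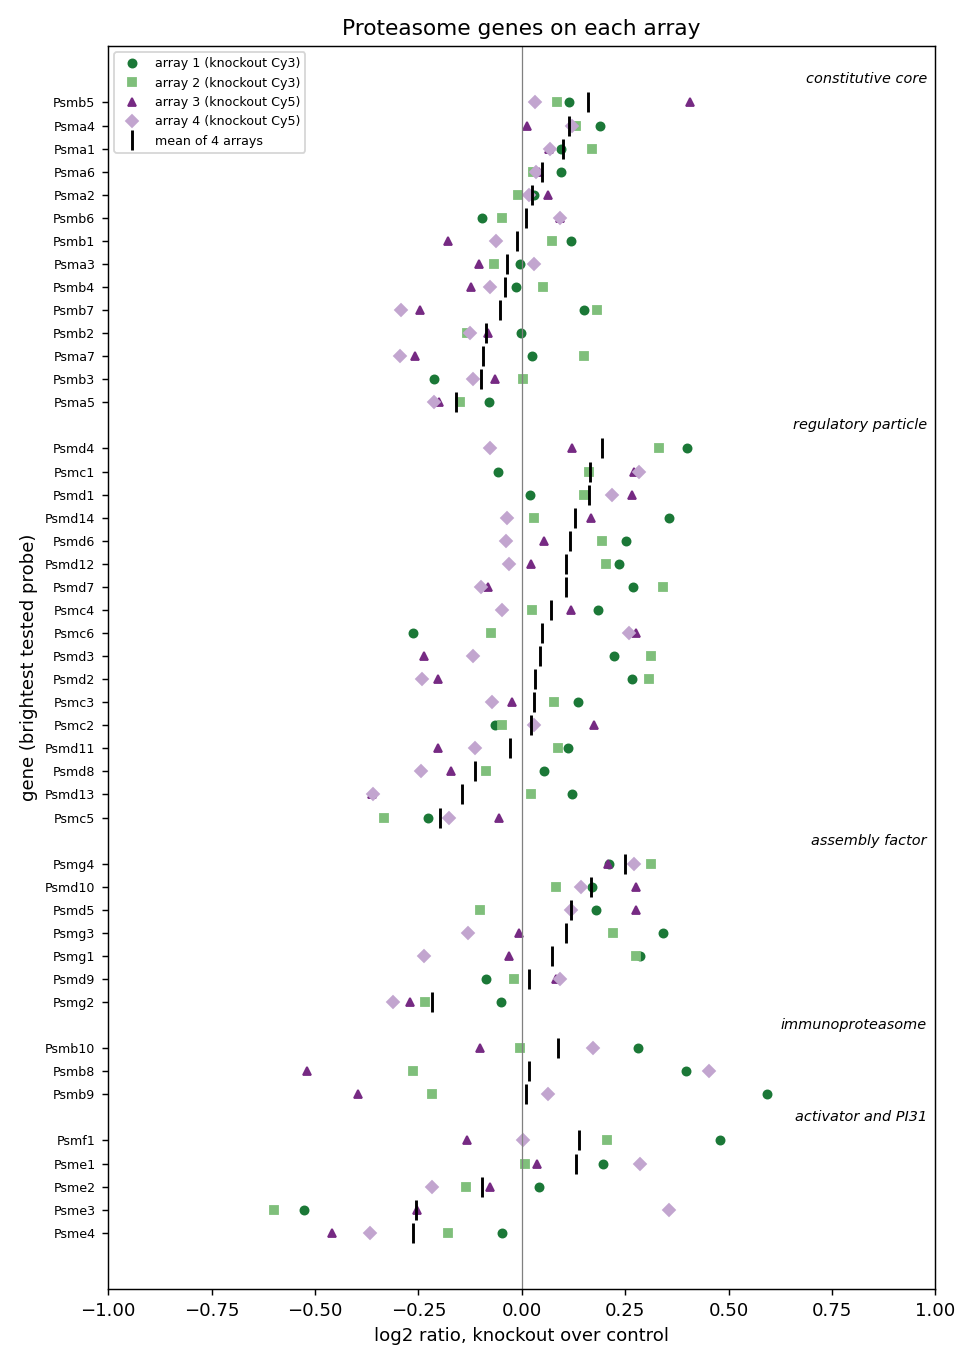
Log2 ratio of knockout over control on each of the 4 arrays for the brightest tested probe of 46 proteasome genes, by class, with the mean of the 4 arrays as a black bar. Psmg4 is the gene with the highest mean, 0.25, and all its points lie at 0.21 or above, while Psme4 has the lowest mean, -0.26.

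Assembly factors held the gene with the highest mean of all members, Psmg4. Of the 7 genes, 6 averaged above 0 and 1 below, with a median of 0.11, beside 8032 above and 8146 below of all tested genes. Psmg4 encodes a chaperone that, with the product of Psmg3, helps to build the alpha ring. Its ratios were 0.21, 0.31, 0.21 and 0.27, with a mean of 0.25 ± 0.05 and an adjusted p of 0.0946. The intensities were 9.88, 9.76, 9.82 and 9.74 in knockout mice, against 9.67, 9.45, 9.61 and 9.47 in control mice. Every knockout mouse was above every control mouse. The probe lies at chr13:34269918-34269977 on mm9.

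Its partner Psmg3 had 0.34, 0.22, -0.0073 and -0.13, with a mean of 0.11 ± 0.05 and an adjusted p of 0.318, so the pair was not alike on arrays 3 and 4. The products of Psmg1 and Psmg2 form the other chaperone pair of the alpha ring. Psmg2 had -0.049, -0.23, -0.27 and -0.31, with a mean of -0.22 ± 0.06 and an adjusted p of 0.129. Its intensities were 10.85, 10.89, 10.84 and 10.79 in knockout mice, against 10.90, 11.13, 11.11 and 11.10 in controls, and did not overlap. Psmg1 had 0.29, 0.28, -0.031 and -0.24, with a mean of 0.074 ± 0.057. This pair thus averaged on opposite sides of 0.

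The products of Psmd5, Psmd9 and Psmd10 are chaperones of the regulatory particle base. Psmd10, also known as gankyrin, had 0.17, 0.083, 0.28 and 0.14 at its brighter probe, with a mean of 0.17 ± 0.05 and an adjusted p of 0.168. There the intensities were 9.55, 9.41, 9.52 and 9.46 in knockout mice, against 9.38, 9.32, 9.25 and 9.32 in controls, with no overlap. Its other probe gave -0.23, -0.22, 0.14 and 0.044, with a mean of -0.068 ± 0.047, so no direction can be given for the gene. Psmd9 had -0.087, -0.020, 0.082 and 0.092, with a mean of 0.017 ± 0.046, and its other probe averaged -0.077. Psmd5 had 0.18, -0.10, 0.28 and 0.12, with a mean of 0.12 ± 0.07. Among the 11 members with 2 tested probes, Psmd10 and Psmd9 were the 2 whose probes had means of opposite sign, and the largest gap between probes was 0.24.

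Among activators, Psme4 was the gene with the lowest mean of all members. It encodes a large single-chain activator of the core that has been linked to DNA repair and to the removal of acetylated histones in the testis. At its brighter probe the ratios were -0.047, -0.18, -0.46 and -0.37, with a mean of -0.26 ± 0.05 and an adjusted p of 0.0959. The intensities were 9.68, 9.54, 9.28 and 9.35 in knockout mice, against 9.73, 9.71, 9.74 and 9.72 in control mice. The control mice lay close together, and every knockout mouse was below them. The second probe gave -0.19, -0.24, -0.22 and -0.18, with a mean of -0.21 ± 0.05 and an adjusted p of 0.109. There the intensities were 8.40, 8.31, 8.24 and 8.28 in knockout mice, against 8.59, 8.55, 8.45 and 8.46 in controls, again with no overlap. The brighter probe lies at chr11:30756055-30756114 and the second at chr11:30710953-30711012 on mm9. For both Psme4 and Psmg4, leaving out any 1 of the 4 arrays raised the adjusted p above 0.1. The same happened to most probes called over the whole array. There 221, 30, 0 and 0 probes passed 0.1 without arrays 1 to 4 in turn, against 1402 with all arrays, and none then passed 0.05.

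**Figure D4:**
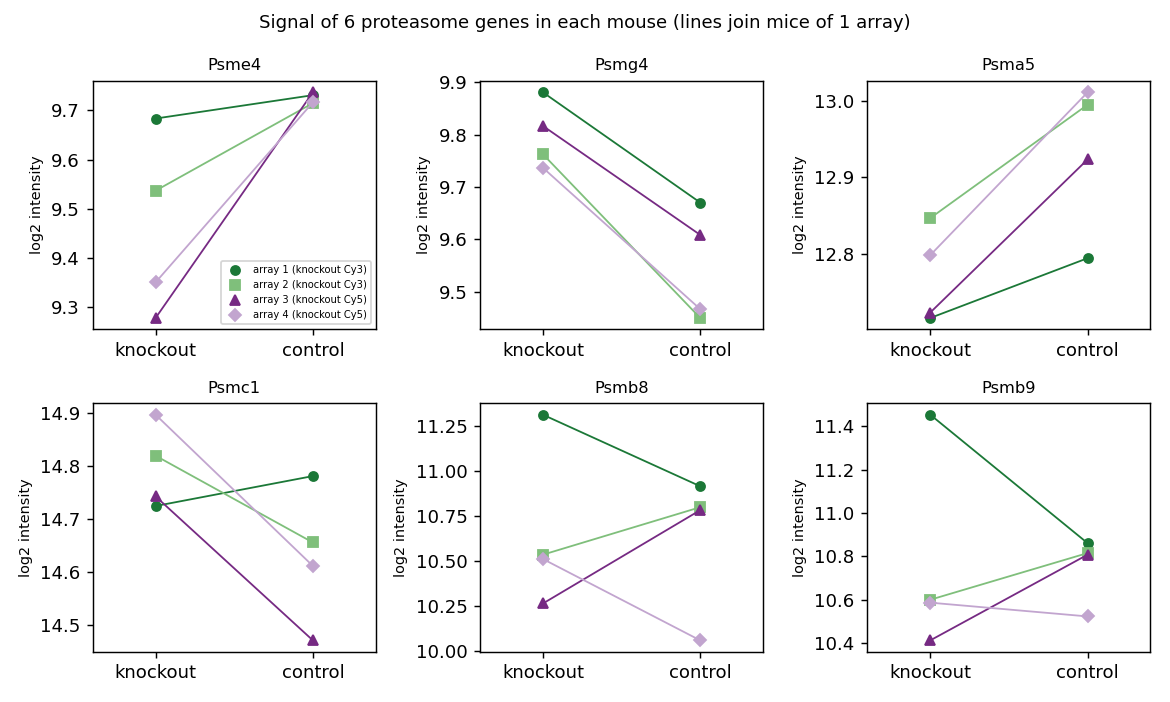
Log2 intensity, after loess and quantile normalisation of average intensities, of 6 proteasome genes in each knockout mouse (left) and its control mouse (right), with a line joining the 2 mice of an array. For Psme4 all knockout mice lie below all control mice, for Psmg4 all lie above, and for Psmb8 and Psmb9 the lines run both ways.

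Psme1 and Psme2 encode the subunits of the interferon-induced activator ring. Psme1 had 0.20, 0.0088, 0.038 and 0.29, above 0 on every array, with a mean of 0.13 ± 0.07 and an adjusted p of 0.332. Psme2 had 0.042, -0.14, -0.077 and -0.22, with a mean of -0.097 ± 0.059 and an adjusted p of 0.394. These partner subunits thus averaged on opposite sides of 0, and neither passed the test. Psme3, the nuclear relative of both, had -0.53, -0.60, -0.25 and 0.36. Its mean was -0.26 ± 0.11 with an adjusted p of 0.271, and 1 array went against the other 3. Its fitted ratio, with both dye orientations weighted equally, was -0.41 without array 4 and -0.10 without array 3. Psmf1, which encodes the inhibitor PI31, had 0.48, 0.21, -0.13 and 0.0022, with a mean of 0.14 ± 0.07.

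The immunoproteasome median, over 3 genes, varied more between arrays than that of any other class, with no shared direction. Psmb8, which replaces Psmb5, had ratios of 0.40, -0.26, -0.52 and 0.45, with a mean of 0.017 ± 0.20 and an adjusted p of 0.971. Its intensities were 11.31, 10.53, 10.26 and 10.51 in knockout mice, against 10.91, 10.80, 10.78 and 10.06 in controls. The highest value belonged to the knockout mouse of array 1 and the lowest to the control mouse of array 4. Psmb9, which replaces Psmb6, had 0.59, -0.22, -0.40 and 0.064, with a mean of 0.011 ± 0.16 and an adjusted p of 0.975. Its intensities were 11.45, 10.60, 10.41 and 10.59 in knockout mice, against 10.86, 10.82, 10.81 and 10.52 in controls. Psmb10, which replaces Psmb7, had 0.28, -0.0033, -0.10 and 0.17, with a mean of 0.087 ± 0.081 and an adjusted p of 0.569. All 3 genes were thus highest on arrays 1 and 4 and lowest on array 3. The class median of 0.017 ran from -0.15 without array 1 to 0.18 without array 2, in fits weighting both dye orientations equally. It was -0.0033 with processed signals. The SD over arrays was 0.48 for Psmb8, 0.43 for Psmb9 and 0.17 for Psmb10, beside a median of 0.17 over all tested probes. The activator gene Psme3 had an SD of 0.43.

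Array medians of other lists are given beside these genes. The 24 tested genes of antigen processing and interferon response had medians of 0.17, -0.046, -0.23 and -0.20. The 6 Kupffer cell markers had 0.26, -0.29, -0.33 and -0.087, and 9 of 12 leukocyte markers had -0.073, -0.19, -0.043 and 0.18. Cd3g and Cd8a, which mark T cells, were too dim to be tested. Tap1, the peptide transporter encoded next to Psmb9, had 0.41, -0.14, -0.22 and -0.16. On array 4, Psmb8 and Psmb10 were above 0 while Tap1 and the interferon list were below. Over that list 5 genes averaged above 0 and 19 below, with 0 higher and 8 lower at an unadjusted p under 0.05. Of all 16178 tested genes, 2074 were higher and 1670 lower at that threshold. The 8 lower genes were all above 0 on array 1 and below 0 on arrays 3 and 4. In limma, Ifi27l2a and Rtp4, both interferon-induced, had adjusted p-values of 0.0653 and 0.0727. Ifi27l2a had ratios of 0.28, 0.031, -1.16 and -1.003, and Rtp4 had 0.13, -0.14, -0.79 and -0.79, so both means came from the arrays with knockout RNA in Cy5. Irf9, a subunit of the factor that carries interferon signals to the genome, had 0.19, -0.20, -0.59 and -0.64, with a mean of -0.31. Irf7, an amplifier of that response, had 0.36, 0.020, -0.79 and -0.69, with a mean of -0.27. Their adjusted p-values in limma were 0.129 and 0.141, and both genes were lowest with knockout RNA in Cy5. What part immune cells had in the immunoproteasome values was not tested.

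**Figure D5:**
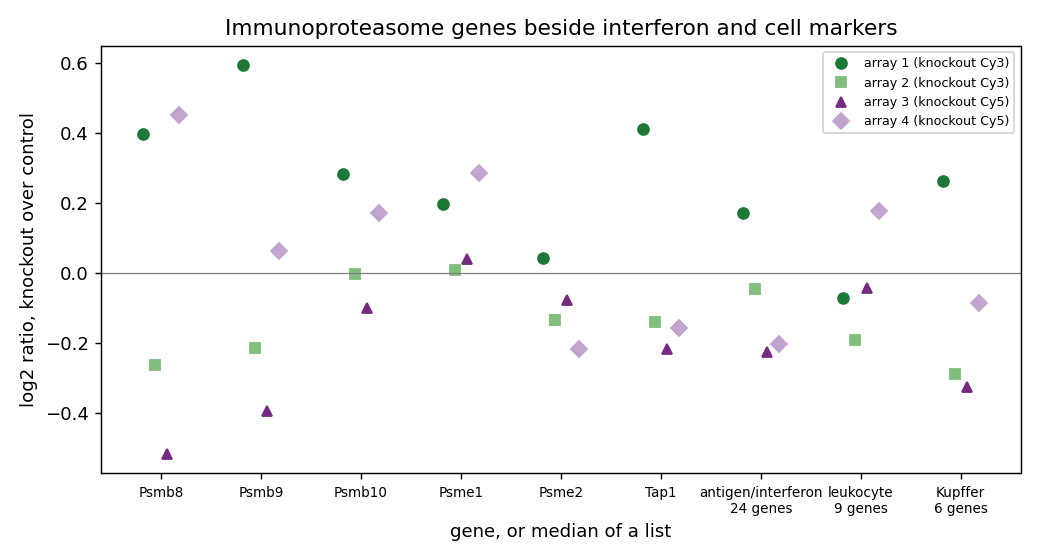
Log2 ratio of knockout over control on each array for the 3 immunoproteasome genes, the interferon-induced activator subunits and Tap1, beside the array medians of interferon genes, leukocyte markers and Kupffer cell markers. Psmb8 runs from -0.52 on array 3 to 0.45 on array 4, and the interferon list lies above 0 on array 1.

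Among the rest, Psma8, an alpha subunit of germ cells, had 0.36, 0.19, 0.040 and -0.20, with a mean of 0.098 ± 0.067. Psmc3ip had 0.16, 0.13, -0.018 and 0.023, with a mean of 0.073 ± 0.046. Neither was well above background in every mouse, and with processed signals the means were 0.37 for Psma8 and 0.32 for Psmc3ip.

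Among tested genes that act with the proteasome, Nfe2l2 and Ddi2 had the mean ratios farthest from 0. At their brightest probes Rad23b and Txnl1 were also farther from 0 than any member. Of 30 tested partners, which deliver or release ubiquitin, guide substrates or control subunit transcription, 17 averaged above 0 and 13 below, with a median of 0.024. At an unadjusted p under 0.05 there were 4 higher and 4 lower, beside 2074 and 1670 of all 16178 tested genes. At their brightest probe 3 had an adjusted p under 0.1, beside 1080 of all tested genes. Nfe2l2, the stress-responsive transcription factor NRF2, had ratios of 0.26, 0.61, 1.002 and 1.09, with a mean of 0.74 ± 0.08 and an adjusted p of 0.0523. Ddi2, the protease that activates NRF1, had -0.50, -0.47, -0.87 and -0.45, with a mean of -0.57 ± 0.08 and an adjusted p of 0.0658, and its second probe averaged -0.78 with an adjusted p of 0.0523. Rad23b, a shuttle that carries ubiquitinated proteins to the proteasome, had 0.61, 0.40, 0.30 and 0.12, with a mean of 0.36 ± 0.07 and an adjusted p of 0.0851. Its other tested probe gave -0.54, -0.52, 0.086 and -0.090, with a mean of -0.27 ± 0.05 and an adjusted p of 0.0985. The probes of Rad23b thus had opposite signs, and no direction can be given for the gene. Txnl1, a thioredoxin-like protein that binds the regulatory particle, had -0.19, -0.48, -0.17 and -0.43, with a mean of -0.32 ± 0.08 and an adjusted p of 0.127. Of these genes, Nfe2l2, Txnl1, Ddi2 at both probes and Rad23b at its brightest probe kept their sign on all 4 arrays. So did 24.5% of all tested probes. Nfe2l1 itself had 0.20, 0.14, 0.14 and -0.089, with a mean of 0.097 ± 0.060. Adrm1, a ubiquitin receptor of the regulatory particle, and Pomp, the chaperone that matures the core, averaged 0.041 and 0.025. With processed signals the adjusted p was 0.0708 for Nfe2l2, 0.0830 for Ddi2 and 0.128 for Rad23b, each at the brightest probe.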

How the data were processed

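Per the labels' protocols, cRNA was amplified from total RNA and carried Cy3 or Cy5. The deposited scanner files hold mean and local background intensity for each spot, from Agilent Feature Extraction 10.7.3.1 per the file headers, and intensities processed by that software. The authors also deposited a table of log2 ratios, which equal log2 knockout over control of the processed intensities. Probe positions are those of the files on mm9.

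Background was corrected with normexp (offset 50), its parameters fitted without spots more than 20 units under their local background, 8 Cy3 and 6 Cy5 spots on replicate 1. With those spots the fitted background mean there was -273 in Cy3, against 4.44 to 5.76 on the other arrays. Ratios were normalised by loess within arrays with control spots at weight 0, spots marked as outliers were left out (194 to 230 for each array), and replicate spots were averaged. Testing required a probe well above background in 3 or more mice of either genotype, and the brightest tested probe stood for a gene in medians. RefSeq accessions were found for 60 of the 62 member probes, none under another symbol. Limma version 3.58.1 under R 4.3.3, with the package data.table in version 1.17.8, fitted a dye intercept and the knockout effect to 4 ratios. All p-values are two-sided, adjusted by Benjamini-Hochberg over 20833 probes, with thresholds of 0.05 and 0.1. Separate channels used statmod 1.5.0, and figures matplotlib 3.10.9. The fit was tested on simulated data with independent noise and planted changes larger than any member's ratio. That test therefore did not cover the detection of changes as small as those here.

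The dye intercept keeps differences between dye orientations out of the standard errors, and the number of arrays limits the precision. The labels give 1 mouse to each channel. Members and lists were chosen with earlier results of these data known, so no test was made over a list. Genes were named by rule: all immunoproteasome genes, Psme1, Psme2, every member with an adjusted p under 0.1, in each class the 3 members farthest from 0 and the 2 nearest, and up to 4 genes with the smallest p of each other list except cell markers. Members given beyond that, and Nfe2l1, Adrm1, Pomp and Tap1, were chosen after their values were seen. Alternatives covered background, normalisation, model, filters and leaving out arrays.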

Additional observations from a re-analysis of the deposited data

Results flagged for a closer look

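On replicate 1 the median ratio of the 7 assembly factors was 0.18, set apart from the other 3 arrays, whose medians lay within 0.082 to 0.092. Its gap to the nearest was 0.89 of the whole range, above Dixon's critical value for 4 values. It was 1 of 64 sets of 4 values examined in this way, and chance alone marks about 1 in 20.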

How the results depend on the processing

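Of the 59 member probes, 2 passed an adjusted p of 0.1. There was 1 (Psme4) with normexp fitted on every spot, 0 with processed signals, without the dye term, with trend and robust moderation or with 1 probe for each gene, and 16 with separate channels. Of all 20833 probes, 1402 passed 0.1 in the main fit and 787 with normexp fitted on every spot. With processed signals 1020 did, without the dye term 360, and with trend and robust moderation 1509. With 1 probe for each gene it was 907 of 16178. Leaving out each of arrays 1 to 4 in turn gave 0 members each time, beside 221, 30, 0 and 0 of all probes. Under a threshold of 0.05 the count of 0 became 10 with separate channels (16.9% of members, beside 17.6% of all probes, with 26.5% of all probes under 0.1). It stayed 0 under the other alternatives, at which 0 to 504 of all probes passed, against 39. Median centring moved the median of all probes to 0.029, the constitutive core median to 0.033, the assembly factor median to 0.17 and the split at an unadjusted p under 0.05 to 14 higher and 2 lower (16.8% and 6.84% of all probes), against 6 and 6. With separate channels that split was 14 and 8, beside 17.5% and 15.6% of all probes. Psmc1 and Psmg4 were the members under 0.1 with median centring. The cause of these shifts was not tested. With 0 members called under 0.05 in the main fit, no call could change sign. Some means near 0 did: Psmb8 was -0.0072 and Psmb9 -0.0033 with processed signals, and Psmd11 was 0.031 with median centring. The ratios already pair 1 knockout with 1 control mouse within each array, and no further replicate block could be fitted. Signal over background kept 3 member probes out of the test.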
